A study of Mus musculus with 10 samples.

Results

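The genes described here mark macrophages, monocytes and dendritic cells, the phagocytes and antigen-presenting cells of a tumour. The set holds 37 genes out of the 26063 in the deposited table, taken by gene symbol, and all 37 were found. It was split by role into 10 genes shared by most macrophages, 11 genes of tissue macrophages and macrophage states (among them C1qa, Mrc1 and Vsig4), 2 genes of recruited monocytes (Ccr2 and Itgam) and 14 dendritic cell genes (among them Xcr1, Clec9a and Flt3). The rule uses gene names only and no measured value.

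RNA was sequenced from 10 mammary tumours, each from a different female mouse of the FVB/N strain, 5 of genotype EIC/WT and 5 of genotype 16IC/WT, called EIC and 16IC here. Every mouse received doxycycline at 2 mg/ml, and their age is not stated in the labels used. What the genotype names stand for is not explained in the labels. The title of the series speaks of a variant of the receptor HER2, of the enzyme ENPP1 and of an immune cold tumour environment. The tumours were frozen at end point and no cell sort is named, so each library mixes tumour, stromal and immune cells. In such bulk RNA, fewer cells of a type and less RNA per cell cannot be told apart.

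Tissue macrophages arise from embryonic precursors or from blood monocytes and depend on the receptor CSF1R and its ligands CSF1 and IL34 to survive. Inflammatory monocytes leave the bone marrow through the chemokine receptor CCR2 and can turn into macrophages or dendritic cells once inside a tissue. Conventional dendritic cells of the first type carry XCR1 and CLEC9A, grow under the FLT3 receptor and are known for presenting antigen of dead cells to CD8 T cells, whereas macrophages are known in mammary tumours for clearing debris, remodelling matrix and restraining or aiding T cells.

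Levels below are CPM (counts scaled to library size by TMM), which compare 1 gene between tumours. A difference is log2 of 16IC over EIC with its standard error (SE), so a negative value is lower in 16IC. Genes are ordered by level only in the authors' FPKM, which divides by gene length. Ratios of CPM between genes carry no length correction and are compared only from tumour to tumour. The libraries held 14813940 to 16947400 counts. The epithelial genes Epcam (1391 ± 199 CPM for EIC and 1744 ± 235 CPM for 16IC, SD, n = 5) and Krt8 (1267 ± 461 CPM for EIC and 902 ± 204 CPM for 16IC) were high in both groups, and the pan-leukocyte gene Ptprc was present in every tumour (26.9 ± 11.1 CPM for EIC and 18.2 ± 8.16 CPM for 16IC).

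Most of these genes were somewhat lower in 16IC tumours on average, but none was separated from EIC beyond the spread between tumours. Of the 37 genes, 31 passed the filter on low counts and were tested. Of these 31, 25 had a lower and 6 a higher estimate in 16IC, with a median log2 difference of -0.29, against 52.3% of genes below 0 and a median of -0.02 over all 14915 genes tested. By edgeR's quasi-likelihood test with Benjamini-Hochberg adjustment, 0 of the 31 passed an adjusted p of 0.05, as did 0% of all genes tested. At an unadjusted p under 0.05 the counts were 0 of 31 for the set and 1958 (13.1%) for all genes. DESeq2 called 0 of the set and 356 genes (2.11%) in the whole table, and the authors' deposited table lists 0 of the 37 under an adjusted p of 0.05 (smallest 0.246). In 0 of the 31 did the groups fail to overlap, against 2.58% of all genes tested. The 6 genes left untested for low counts were Marco, Flt3, Xcr1, Clec9a, Ccr7 and Siglech, and their counts are given below.

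**Figure D1:**
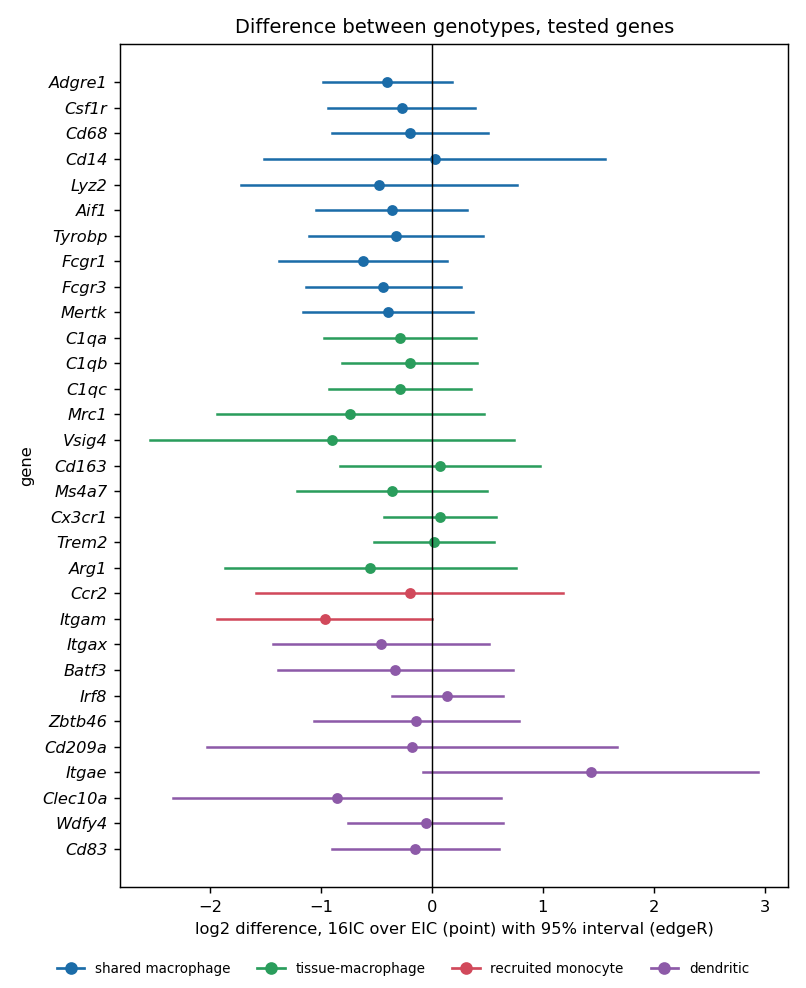
Log2 difference of 16IC over EIC (points) with its 95% interval (lines, edgeR) for the 31 tested genes, ordered and coloured by role. All 31 intervals include 0. The lowest point is that of Itgam and the highest that of Itgae.

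The medians by role were -0.38 for the shared macrophage genes (9 of 10 lower), -0.29 for the tissue macrophage genes (7 of 10 tested lower), -0.58 for both recruited monocyte genes (2 of 2 lower) and -0.15 for the dendritic cell genes (7 of 9 tested lower). These medians moved when single tumours were left out. Without EIC 1 they were -0.19 (shared), -0.13 (tissue) and 0.07 (dendritic), and without 16IC 3 the dendritic median was 0.05. With 16IC 5 left out they were -0.47 (tissue), -0.95 (recruited) and -0.37 (dendritic). The median of all tested members was -0.14 without EIC 1 and -0.48 without 16IC 5. The count of genes higher in 16IC was 6 (25 lower). It was 11 (22 lower) without 16IC 3, 10 (21 lower) without EIC 1, 3 (29 lower) without 16IC 2 and 2 (30 lower) without 16IC 5. The filter on low counts was applied anew in each fit, so these counts and medians do not cover the same genes throughout.

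The level of these genes split the tumours across the genotypes rather than between them. Against each gene's own mean over the 10 tumours, 28, 26 and 27 of the 31 tested genes were above it in EIC 1, EIC 4 and EIC 5, and 24 and 26 in 16IC 2 and 16IC 5. The other tumours had 7 (EIC 2), 9 (EIC 3), 9 (16IC 1), 7 (16IC 3) and 5 (16IC 4) genes above the mean. So 3 EIC and 2 16IC tumours were rich in these transcripts, and 2 EIC and 3 16IC tumours were poor in them. The shared and tissue macrophage genes followed this split, and the other roles did so only in part. Of the 9 tested dendritic cell genes, 5 were above their mean in 16IC 1 and 4 in EIC 3. The 2 recruited monocyte genes were both above theirs in EIC 2. The tumours were not averaged or tested by this split, which follows the measured levels.

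**Figure D2:**
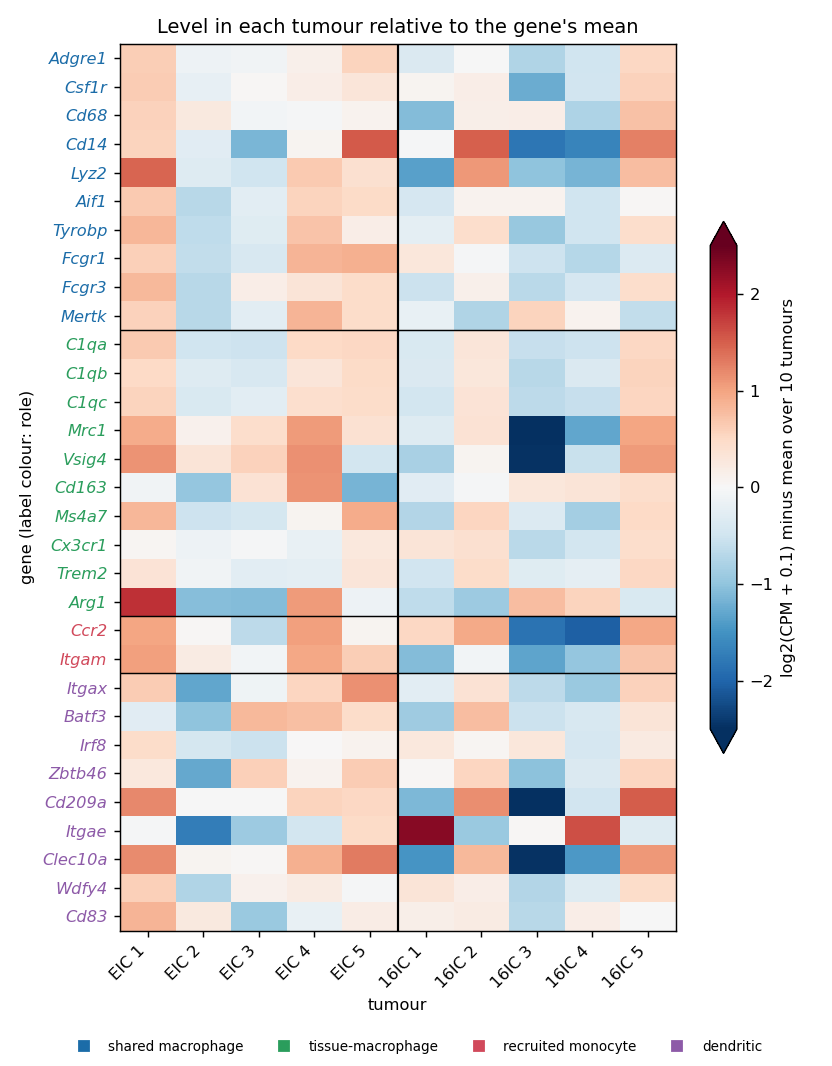
Level of each tested gene in each tumour as log2(CPM + 0.1) minus the gene's mean over the 10 tumours (red above, blue below; colours saturate at 2.5 in either direction). Rows are grouped by role and a vertical line divides the 5 EIC from the 5 16IC tumours. EIC 1, EIC 4, EIC 5, 16IC 2 and 16IC 5 are mostly red, and 16IC 3 is the bluest column for Mrc1, Vsig4, Cd209a and Clec10a.

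Summed over each list, adipocyte and fibroblast genes split the tumours in the same way. The summed CPM of 6 adipocyte genes was 187, 238 and 135 in EIC 1, EIC 4 and EIC 5, and 236 and 132 in 16IC 2 and 16IC 5, against 11.0 to 46.8 in the other 5 tumours. The 9 fibroblast genes summed to 2860 to 6636 CPM in those 5 tumours and to 401 to 2577 CPM in the other 5. Single fibroblast genes did not all follow this split. Pdgfrb was highest in EIC 3 (89.0 CPM), against 30.2 CPM in EIC 5 and 33.9 CPM in 16IC 5. Of the tested genes, 5 of 6 adipocyte genes (median log2 difference -0.47) and 8 of 9 fibroblast genes (median -0.76) were lower in 16IC, and 0 of either list passed edgeR's or DESeq2's test. The smallest p-values were those of Plin4 (-0.96, SE 1.02) and Fabp4 (-0.43, SE 0.70) among the adipocyte genes, and of Pdgfrb (-0.79, SE 0.35) and Thy1 (-0.60, SE 0.30) among the fibroblast genes, with adjusted p-values of 0.372 to 0.804 (edgeR). Endothelial and mammary epithelial genes did not split the tumours in this way. The endothelial genes summed to 193 CPM in 16IC 1 and 184 CPM in EIC 3, above EIC 5 (168 CPM) and 16IC 2 (169 CPM). The epithelial genes summed to 5939 CPM in 16IC 3, above 16IC 2 (5428 CPM) and 16IC 5 (5151 CPM). Of the endothelial genes Emcn (-0.61, SE 0.33) and Vwf (-0.70, SE 0.78) had the smallest p-values, and of the epithelial genes the keratins Krt14 (-5.10, SE 1.80) and Krt7 (-1.58, SE 0.56), with adjusted p-values of 0.307 to 0.704 (edgeR). Genes of mast cells, basophils and eosinophils also split the tumours in the same way when summed. They gave 7.79 to 22.9 CPM in the 5 tumours high for adipocyte genes and 0.304 to 6.95 CPM in the other 5. All 4 tested genes of this list were lower in 16IC (median -1.22), among them the mast cell proteases Cma1 (-1.25, SE 0.85) and Cpa3 (-1.32, SE 0.96), with adjusted p-values of 0.529 and 0.556 (edgeR). None of these marker genes was at 0 in all tumours, and their part in the macrophage values was not tested.

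Csf1r, the receptor that macrophages need for survival, was measured at 102, 56.4, 66.3, 73.1 and 80.3 CPM in EIC 1 to 5 and 68.6, 73.2, 27.5, 46.8 and 96.7 CPM in 16IC 1 to 5. The highest tumours were EIC 1 and 16IC 5 and the lowest was 16IC 3, and the groups overlapped over most of their range. The means were 75.6 ± 17.2 CPM for EIC and 62.5 ± 26.4 CPM for 16IC (SD, n = 5), a log2 difference of -0.27 (SE 0.30, adjusted p = 0.698 by edgeR). Csf1r is on the plus strand of chromosome 18 from 61105572 to 61132149 (GRCm38), and 15.1% of its exon bases overlap Hmgxb3 on the opposite strand, whose reads could be counted here if strand was not used.

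Adgre1 encodes F4/80, the surface protein used to stain mouse macrophages. It stood at 28.0, 16.7, 17.3, 19.8 and 26.9 CPM in EIC 1 to 5 and 14.2, 18.1, 10.8, 13.0 and 26.1 CPM in 16IC 1 to 5. EIC 1, EIC 5 and 16IC 5 formed the top, and 16IC 3 and 16IC 4 the bottom. Its log2 difference was -0.40 (SE 0.26, adjusted p = 0.514, edgeR).

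With Adgre1, a pair of Fc receptors had the 3 smallest p-values of the shared genes. Fcgr1, the high-affinity receptor for IgG, was at 15.2, 6.48, 7.55, 18.1 and 18.5 CPM in EIC 1 to 5 and 12.1, 9.81, 6.93, 6.03 and 7.86 CPM in 16IC 1 to 5. All 5 16IC tumours lay below EIC 1, EIC 4 and EIC 5, and EIC 2 and EIC 3 lay among the 16IC tumours. For Fcgr1 the log2 difference was -0.62 (SE 0.34, adjusted p = 0.449, edgeR). Fcgr3, a low-affinity receptor for IgG, was at 16.9, 5.88, 10.8, 12.1 and 13.2 CPM in EIC 1 to 5 and 6.63, 10.5, 6.02, 7.20 and 13.1 CPM in 16IC 1 to 5, a log2 difference of -0.44 (SE 0.32, adjusted p = 0.555). The groups of both genes overlapped.

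The other shared macrophage genes had log2 differences from -0.47 (Lyz2) to 0.02 (Cd14). Lyz2, lysozyme of macrophages and neutrophils, ranged from 157 to 612 CPM in EIC and from 86.9 to 469 CPM in 16IC. Cd14, a co-receptor for bacterial lipopolysaccharide, varied widely between tumours, from 120.2 to 772 CPM in EIC and from 76.6 to 751 CPM in 16IC. Between these estimates lay Mertk (-0.40), a receptor for engulfing dead cells, Aif1 (-0.36), the actin-bundling protein IBA1, Tyrobp (-0.32), the signalling adaptor DAP12, and Cd68 (-0.20), a lysosomal glycoprotein. Adjusted p-values of these 6 genes were 0.612 to 0.993 (edgeR).

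The 3 chains of C1q, the first component of the classical complement pathway, are secreted by tissue macrophages and were the most abundant of the tissue macrophage genes per length. C1qa was measured at 181, 80.8, 80.3, 161 and 165 CPM in EIC 1 to 5 and 87.7, 140.4, 76.3, 80.1 and 163 CPM in 16IC 1 to 5. EIC 1, EIC 4, EIC 5, 16IC 2 and 16IC 5 lay at 140.4 CPM or more and the other 5 tumours at 87.7 CPM or less, with no tumour between. The means were 133 ± 48.8 CPM for EIC and 109 ± 39.6 CPM for 16IC (SD, n = 5), a log2 difference of -0.28 (SE 0.31, adjusted p = 0.692, edgeR).

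C1qb was at 111, 62.8, 59.6, 96.3 and 109 CPM in EIC 1 to 5 and 61.1, 95.2, 48.7, 60.9 and 115 CPM in 16IC 1 to 5, and C1qc was at 107, 55.8, 60.3, 97.2 and 98.8 CPM in EIC 1 to 5 and 52.6, 91.1, 45.8, 48.6 and 105 CPM in 16IC 1 to 5. The same 5 tumours were high for both chains. Their log2 differences were -0.20 (SE 0.27) and -0.29 (SE 0.29), with adjusted p-values of 0.762 and 0.671 (edgeR). The 3 genes lie side by side on the minus strand of chromosome 4, C1qa from 136895917 to 136898803, C1qc from 136889804 to 136893065 and C1qb from 136880129 to 136886187 (GRCm38).

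Mrc1 encodes the mannose receptor CD206, known from tissue macrophages and from macrophages exposed to IL-4. It was at 42.2, 24.0, 30.0, 46.3 and 28.7 CPM in EIC 1 to 5 and 17.7, 28.5, 3.53, 8.91 and 44.1 CPM in 16IC 1 to 5. The EIC tumours kept within 24.0 to 46.3 CPM, whereas 16IC ranged from 3.53 CPM in 16IC 3 and 8.91 CPM in 16IC 4, the lowest of all 10, to 44.1 CPM in 16IC 5. The log2 difference was -0.73 (SE 0.54, adjusted p = 0.563, edgeR), -0.46 without 16IC 3 and -1.23 without 16IC 5. On the log2 scale Mrc1 minus C1qa was -1.91 ± 0.41 in EIC tumours and -2.80 ± 0.999 in 16IC tumours (SD, n = 5), with the widest distance in 16IC 3.

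Vsig4, the complement receptor CRIg, marks macrophages of resident populations such as those of the liver and peritoneum. It was near the limit of detection, at 1.10, 0.594, 0.719, 1.13 and 0.301 CPM in EIC 1 to 5 and 0.216, 0.476, 0, 0.274 and 1.06 CPM in 16IC 1 to 5, which stands for 0 to 19 counts per library. With no count in 16IC 3 and only 3 in 16IC 1, its log2 difference of -0.90 has an SE of 0.74 (adjusted p = 0.601, edgeR), and it was -0.58 without 16IC 3 and -1.64 without 16IC 5.

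PU.1, encoded by Spi1, is the ETS factor that the macrophage lineage depends on. The promoters of 4 members that hold the core letters of its motif are shown as examples. These genes varied with Csf1r across tumours (Pearson r of 0.79 for Itgam and above 0.8 for the others). The r of Vsig4 fell from 0.82 to 0.43 without 16IC 3 and 16IC 4. Over all tumours its Spearman rho was 0.60 (permutation p = 0.0743, adjusted 0.101). C1qc (r 0.83) and Fcgr3 (r 0.80) also hold the core and are not printed. Core and r did not go together throughout. Cd209a (r 0.90), Wdfy4 (0.85), Ccr2 (0.84) and Cx3cr1 (0.82) had no match. Cd68 (0.31), Aif1 (0.41), Batf3 (0.41), Fcgr1 (0.57) and Trem2 (0.61) had one. The core letters GAGGAA were searched on both strands in the 250 bases before each RefSeq start site (GRCm38.p6). The lines give the strand of the gene 5′ to 3′, and capitals mark a match (TTCCTC is the same motif on the other strand).
C1qb, chr4:136886201-136886450, minus strand: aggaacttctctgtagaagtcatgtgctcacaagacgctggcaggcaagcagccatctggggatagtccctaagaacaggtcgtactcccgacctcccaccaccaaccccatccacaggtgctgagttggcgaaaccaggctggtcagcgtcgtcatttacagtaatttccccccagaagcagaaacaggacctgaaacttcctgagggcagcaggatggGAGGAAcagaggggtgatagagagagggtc
Mrc1, chr2:14229164-14229413, plus strand: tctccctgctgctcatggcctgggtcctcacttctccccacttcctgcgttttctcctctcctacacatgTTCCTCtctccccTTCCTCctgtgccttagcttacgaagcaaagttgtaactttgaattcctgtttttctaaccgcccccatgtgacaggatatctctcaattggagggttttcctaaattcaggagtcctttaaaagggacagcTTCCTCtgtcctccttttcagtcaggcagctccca
Vsig4, chrX:96293439-96293688, minus strand: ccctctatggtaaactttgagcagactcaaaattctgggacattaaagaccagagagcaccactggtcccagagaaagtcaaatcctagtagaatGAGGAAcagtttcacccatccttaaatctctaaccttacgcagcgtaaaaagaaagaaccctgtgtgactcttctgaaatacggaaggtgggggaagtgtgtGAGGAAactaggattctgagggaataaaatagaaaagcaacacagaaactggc
Itgam, chr7:128062390-128062639, plus strand: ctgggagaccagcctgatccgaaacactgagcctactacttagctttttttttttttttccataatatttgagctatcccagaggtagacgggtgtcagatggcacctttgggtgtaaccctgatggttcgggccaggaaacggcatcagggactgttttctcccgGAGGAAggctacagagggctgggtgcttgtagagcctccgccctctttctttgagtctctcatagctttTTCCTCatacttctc
The match of C1qb starts 30 bases before the start site, those of Mrc1 180, 167 and 35, those of Vsig4 155 and 53, and those of Itgam 84 and 15 bases before it. RefSeq promoters were found for 27 of the 37 genes, as 30 windows. Of these, 13 windows (43.3%) from 12 genes held the core, as did 23.3% of all 32851 promoter windows of the same length. The longer ETS-IRF composite element, searched the same way, was in 0 of the 30 windows and in 2.30% of all windows. A match describes letters and is not evidence of binding. Spi1 itself was at 16.3 ± 6.36 CPM for EIC and 12.0 ± 5.17 CPM for 16IC (SD, n = 5), a log2 difference of -0.44 (SE 0.36, adjusted p = 0.599, edgeR).

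The other tested genes of tissue macrophages and macrophage states had estimates from -0.56 to 0.07. Arg1, the arginase of macrophages that is also made by other cells, was highest in EIC 1 (87.4 CPM) and EIC 4 (51.3 CPM) and at 11.5 to 41.7 CPM elsewhere. Its log2 difference was -0.56 (SE 0.59) and 0.05 without EIC 1. Ms4a7, a membrane protein of macrophages, had -0.36, Cx3cr1, the fractalkine receptor, 0.07, Cd163, the haemoglobin scavenger receptor, 0.07 and Trem2, a lipid-sensing receptor, 0.02. Cx3cr1 kept within 29.8 to 41.1 CPM in EIC and spread from 21.4 to 46.1 CPM in 16IC. Adjusted p-values of these 5 genes were 0.687 to 0.982 (edgeR).

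Marco, a scavenger receptor of marginal zone and alveolar macrophages, was essentially a gene of 1 tumour. EIC 1 held 75 counts (4.35 CPM), EIC 4 held 2, 16IC 5 held 1, and the other 7 libraries held 0. EIC 1 also had the most RNA of B cell genes (Ms4a1 4.17 CPM against 0 to 0.238 elsewhere, Cd79a 4.06 against 0 to 0.301, and 25.1 CPM against 0.432 to 3.73 for the 6 B and plasma cell genes summed, none of them at 0 in all tumours; the 1 tested, Jchain, had a log2 difference of -2.46, SE 1.27, adjusted p = 0.420 by edgeR) and of the basal keratin Krt14 (465.7 CPM against 0 to 174). Whether those cells account for the Marco counts was not tested.

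Ccr2, the receptor for CCL2 that brings monocytes into tissue, was at 11.4, 5.82, 3.59, 11.6 and 5.96 CPM in EIC 1 to 5 and 8.14, 11.1, 1.52, 1.30 and 11.3 CPM in 16IC 1 to 5. The lowest tumours were 16IC 3 and 16IC 4, at 1.52 and 1.30 CPM, yet 16IC 2 and 16IC 5 reached the level of EIC 1 and EIC 4. The log2 difference was -0.20 (SE 0.63, 95% interval -1.58 to 1.18, adjusted p = 0.903, edgeR). It turned to 0.05 without 16IC 3 and to 0.06 without 16IC 4.

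Itgam encodes CD11b, the integrin alpha chain of monocytes, neutrophils and many macrophages, and had the smallest p of the set. It was measured at 8.46, 4.75, 3.89, 8.13 and 6.38 CPM in EIC 1 to 5 and 1.87, 3.93, 1.58, 2.06 and 6.68 CPM in 16IC 1 to 5. The 5 EIC tumours lay at 3.89 CPM or more, and 3 of the 16IC tumours (1, 3 and 4) below that, while 16IC 2 and 16IC 5 fell within the EIC range. The means were 6.32 ± 2.01 CPM for EIC and 3.22 ± 2.14 CPM for 16IC (SD, n = 5), a log2 difference of -0.97 (SE 0.44, 95% interval -1.94 to 0.00). The unadjusted p was 0.0503 and the adjusted p 0.381 by edgeR's quasi-likelihood test, the exact two-sided permutation p was 0.0556 and DESeq2's adjusted p was 0.246. With 16IC 5 left out, DESeq2 called Itgam (log2 difference -1.42, adjusted p = 0.0167), and edgeR did not.

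Neutrophil genes were lower in the same direction as Itgam. All 5 tested genes of the neutrophil list were lower in 16IC (median log2 difference -2.42), and DESeq2 called 3 of them, S100a8 (adjusted p = 0.0258), Cxcr2 (0.0341) and Mmp9 (0.0301), with 0 called by edgeR. S100a8, a calcium-binding protein of neutrophils, was at 32.2, 2.97, 4.67, 24.3 and 8.85 CPM in EIC 1 to 5 and 1.30, 4.996, 0.608, 2.74 and 3.75 CPM in 16IC 1 to 5. The 9 listed genes found in the table summed to 14.5 to 105 CPM in EIC and 3.83 to 22.5 CPM in 16IC, and none was at 0 in all tumours. Their part in the Itgam difference was not tested. Gm49368 overlaps 68.7% of the exon bases of Itgam on the same strand, so its level is uncertain where the counting dropped shared reads.

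**Figure D3:**
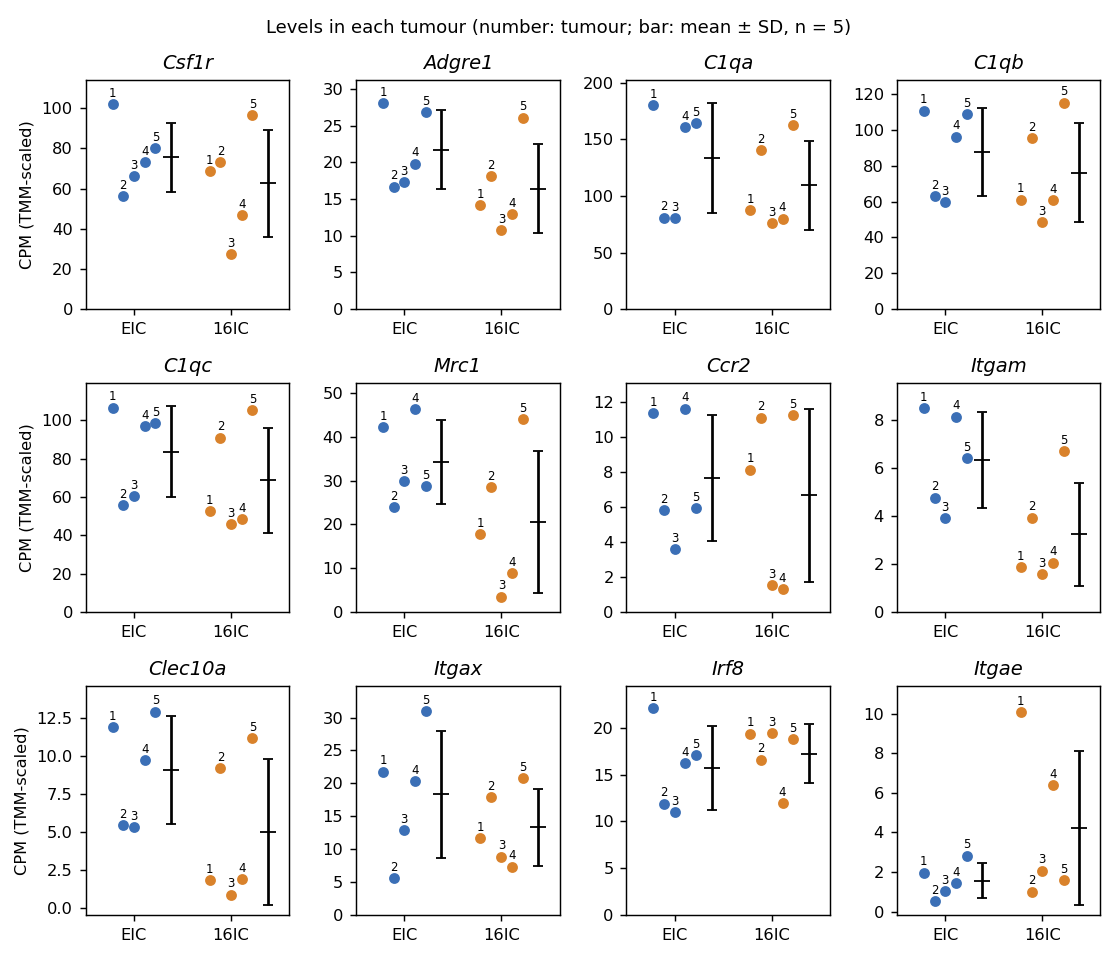
CPM (TMM-scaled, linear axis) of 12 genes in the 5 EIC (blue) and 5 16IC (orange) tumours; the number beside a point is the tumour, and the bar gives the mean ± SD (n = 5). The points of the C1q chains fall into the same high and low tumours in both genotypes, Ccr2 and Mrc1 are lowest in 16IC 3 and 16IC 4, and Itgae is highest in 16IC 1 and 16IC 4.

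The recruited and tissue macrophage genes were also compared as ratios within each tumour. The summed CPM of Ccr2 and Itgam was 4.09 ± 0.86% of that of C1qa, C1qb, C1qc, Mrc1 and Vsig4 in EIC tumours and 3.29 ± 1.43% in 16IC tumours (SD, n = 5). In EIC the percentages were 4.49, 4.72, 3.24, 4.92 and 3.08 in tumours 1 to 5, and in 16IC 4.57, 4.23, 1.78, 1.69 and 4.18. By these percentages 16IC 3 and 16IC 4 stood below all EIC tumours, and the other 3 16IC tumours lay within the EIC range. As a difference of mean log2 CPM, the balance of recruited over tissue macrophage genes was 0.24 lower in 16IC, less than the SD within either group (0.26 in EIC and 0.43 in 16IC), and no p is given for such a score. It was 0.06 lower without 16IC 4 and 0.35 lower without EIC 3. The 2 recruited genes did not keep a steady distance in 16IC. On the log2 scale Ccr2 minus Itgam ran from -0.11 to 0.51 in EIC tumours. In 16IC it ran from -0.61 in 16IC 4 to 2.05 in 16IC 1. Itgam weighs as much in this balance as Ccr2, although it is also a gene of neutrophils and shares exon bases with Gm49368. The balance is thus not a measure of recruited monocytes alone.

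Dendritic cell genes of broad use were low but measurable. Itgax encodes CD11c, carried by dendritic cells and also by many tumour macrophages. It was at 21.8, 5.58, 12.9, 20.4 and 31.0 CPM in EIC 1 to 5 and 11.7, 18.0, 8.88, 7.34 and 20.8 CPM in 16IC 1 to 5. EIC 5 was highest and EIC 2 lowest of all 10, so the 16IC tumours lay inside the EIC range. For Itgax the log2 difference was -0.46 (SE 0.44, adjusted p = 0.652, edgeR).

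Clec10a encodes a galactose-binding lectin of type 2 dendritic cells and of some macrophages. It was at 11.9, 5.41, 5.27, 9.69 and 12.9 CPM in EIC 1 to 5 and 1.80, 9.16, 0.851, 1.85 and 11.1 CPM in 16IC 1 to 5. 16IC 1, 16IC 3 and 16IC 4 lay below all EIC tumours, and 16IC 2 and 16IC 5 within them. The log2 difference was -0.86 (SE 0.67, adjusted p = 0.579 by edgeR, exact permutation p = 0.103). Cd209a, a lectin of monocyte-derived dendritic cells, followed a like order from 0 CPM in 16IC 3 to 2.76 CPM in 16IC 5. Its log2 difference was -0.18 (SE 0.83).

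Itgae was the member with the largest estimate above 0. It encodes CD103, the integrin alpha chain of type 1 dendritic cells in tissue and of T cells that reside in epithelium. It was at 1.97, 0.535, 1.02, 1.44 and 2.83 CPM in EIC 1 to 5 and 10.1, 1.01, 2.07, 6.38 and 1.58 CPM in 16IC 1 to 5. 16IC 1 and 16IC 4 were highest, and 16IC 2, 16IC 3 and 16IC 5 lay within the EIC range. The log2 difference was 1.43 (SE 0.68, 95% interval -0.08 to 2.94, adjusted p = 0.394, edgeR), and 0.83 without 16IC 1.

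The killer cell genes Gzmb, Ncr1 and Klrb1c were highest in the same pair of tumours. Gzmb, the granzyme of killer cells, was at 13.3 CPM in 16IC 1 and 7.54 CPM in 16IC 4, against 0 to 2.98 CPM in the other 8. Ncr1, an NK cell receptor, was at 2.09 and 0.960 CPM against 0 to 0.547, and Klrb1c, the NK1.1 gene, at 0.937 and 1.17 CPM against 0 to 0.348. Cd3e, a T cell receptor chain, was not high there (0.576 and 0.137 CPM) and was highest in EIC 1 (1.45 CPM). Cd8a, a co-receptor of killer T cells, was at 1.22 and 0.206 CPM there and highest in EIC 5 (1.32 CPM). Of the 11 genes of the T and NK cell list, 3 were tested, 2 higher and 1 lower in 16IC, and DESeq2 called Gzmb (adjusted p = 0.0139) and Xcl1 (0.0426) with 0 called by edgeR. The list summed to 1.01 to 19.8 CPM in EIC and 6.48 to 24.4 CPM in 16IC, with 24.4 CPM in 16IC 1, 19.8 CPM in EIC 1 and 14.0 CPM in 16IC 4, and none was at 0 in all tumours. The part of these cells in the Itgae level was not tested.

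The transcription factors of dendritic cells, together with Wdfy4 and Cd83, had estimates from -0.33 to 0.14. Irf8, needed for type 1 and plasmacytoid dendritic cells, had 15.7 ± 4.47 CPM for EIC and 17.2 ± 3.19 CPM for 16IC, a log2 difference of 0.14 with a 95% interval of -0.36 to 0.64. Batf3, the partner factor of the type 1 lineage, had -0.33 (SE 0.48) and Zbtb46, a factor of conventional dendritic cells, -0.14 (SE 0.42). Wdfy4, needed for cross-presentation, had -0.06 (SE 0.32), and Cd83, a surface protein of mature dendritic cells, -0.15 (SE 0.34). Their adjusted p-values were 0.776 to 0.950 (edgeR).

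Xcr1, Clec9a and Flt3, the genes that define type 1 dendritic cells and their growth factor receptor, were too scarce to pass the filter before edgeR's test. The raw counts of Xcr1, the receptor for XCL1, were 14, 4, 0, 5 and 5 in EIC 1 to 5 and 19, 11, 5, 9 and 6 in 16IC 1 to 5. Those of Clec9a, a receptor for actin of dead cells, were 12, 2, 12, 4 and 6 in EIC and 9, 3, 0, 9 and 8 in 16IC. Those of Flt3 were 15, 0, 1, 5 and 9 in EIC and 3, 15, 2, 6 and 12 in 16IC. The counts of Xcr1 were highest in 16IC 1 and EIC 1 and those of Flt3 in EIC 1 and 16IC 2, and the groups overlapped for all 3 genes. By CPM, Xcr1 was 0.332 ± 0.296 in EIC and 0.659 ± 0.426 in 16IC, Clec9a 0.429 ± 0.268 and 0.383 ± 0.283, and Flt3 0.357 ± 0.359 and 0.469 ± 0.325 (SD, n = 5), with exact permutation p-values of 0.167, 0.706 and 0.460. DESeq2, which did not use that filter, gave adjusted p-values of 0.567, 0.944 and 0.875.

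**Figure D4:**
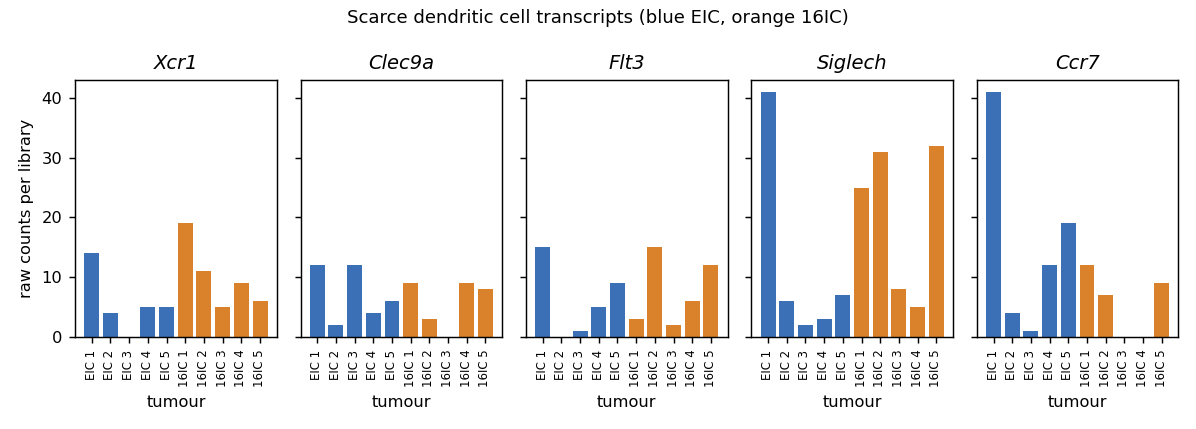
Raw counts per library of 5 dendritic cell genes too scarce to pass the filter before edgeR's test, in the 5 EIC (blue) and 5 16IC (orange) tumours. No bar passes 41 counts, Xcr1 is highest in 16IC 1 (19 counts), and EIC 1 holds the most Siglech and Ccr7.

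Together the 3 genes gave 6 to 41 counts per EIC tumour and 7 to 31 per 16IC tumour. Their summed CPM was 0.311 ± 0.145% of that of the 5 tissue macrophage genes in EIC tumours and 0.586 ± 0.326% in 16IC tumours (SD, n = 5). The percentages were 0.538, 0.159, 0.337, 0.218 and 0.300 in EIC 1 to 5 and 1.02, 0.485, 0.244, 0.828 and 0.356 in 16IC 1 to 5. By these percentages 16IC 1 and 16IC 4 were above all EIC tumours and the other 3 within their range. As a difference of mean log2 CPM (prior count 2), the dendritic over tissue macrophage balance was -6.19 ± 0.51 in EIC and -5.21 ± 0.64 in 16IC, 0.98 higher in 16IC. It was 0.81 to 1.19 higher when any 1 tumour was left out. By this score 16IC 3 (-5.34) was also above EIC 1 (-5.48), the highest EIC tumour, although its percentage was within the EIC range. This balance sets counts near 0 against macrophage genes whose own estimates were lower in 16IC. Vsig4 on the macrophage side was itself at 0 to 19 counts and weighs as much there as each C1q chain. No p is given for the balance.

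Siglech, a lectin of plasmacytoid dendritic cells, had 41 counts in EIC 1, 2 to 7 in the other EIC tumours, and 25, 31 and 32 in 16IC 1, 16IC 2 and 16IC 5 with 8 and 5 in 16IC 3 and 16IC 4. Ccr7, the receptor that guides mature dendritic cells to lymph nodes, had 41 counts in EIC 1 and 1 to 19 in the other EIC tumours, with 12, 7, 0, 0 and 9 in 16IC 1 to 5. Exact permutation p-values were 0.198 for Siglech and 0.302 for Ccr7. Both genes overlapped between the groups.

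Per length, the set spanned a wide range in the authors' FPKM. Over the 10 tumours Cd14 averaged 222 FPKM, Lyz2 202, C1qa 113, C1qb 73.1 and C1qc 38.4, followed by Tyrobp at 27.8, Cd68 at 18.8 and Csf1r at 13.8. Adgre1 and Fcgr3 both averaged 5.73 FPKM and Mrc1 4.18. Ccr2 averaged 1.03 FPKM and Itgam 0.924, far under the C1q chains. At the bottom were Clec9a (0.120), Xcr1 (0.109) and Flt3 (0.0651). The ranges over tumours overlapped between most neighbours in this order, for example C1qa (69.2 to 173 FPKM) and C1qb (42.2 to 104 FPKM).

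Across the 10 tumours most of the genes varied with Csf1r. Of the 30 other tested genes, 12 (40.0%) had a Pearson r of log2 CPM with Csf1r of at least 0.8, and the median r of the 30 was 0.76, against 5.03% and a median of -0.0016 over all 14914 other genes tested. After Benjamini-Hochberg adjustment over the 30 genes, 18 had a permutation p under 0.05. With genotype means removed 11 of the 30 reached 0.8, and without 16IC 3 and 16IC 4, the tumours farthest from the median of Csf1r, 6 did. All values of a tumour come from 1 library, and the genes share its mix of cells.

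Adgre1 had an r of 0.90 with Csf1r (permutation p = 1.2e-04, Spearman rho 0.94, permutation p = 1.8e-04; adjusted p-values 0.0012 and 0.0018) and 0.84 without 16IC 3 and 16IC 4. Mrc1 had the highest r, 0.93 (permutation p = 4.1e-04, rho 0.75, permutation p = 0.0173; adjusted 0.00205 and 0.0311), but 0.65 without those tumours. Ccr2 had 0.84 (permutation p = 0.00219, rho 0.81, permutation p = 0.00742; adjusted 0.00597 and 0.0194) and 0.58 without them. The relations of Mrc1 and Ccr2 with Csf1r thus rested in large part on the tumours 16IC 3 and 16IC 4, and that of Adgre1 did not.

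Several genes were out of step with Csf1r. Mertk had an r of -0.15, Itgae -0.10, Cd163 -0.08, Arg1 -0.02, Irf8 0.25 and Cd68 0.31, with permutation p-values of 0.373 to 0.953. Their Spearman rho ran from -0.07 to 0.43. Without 16IC 3 and 16IC 4 the r was 0.78 for Irf8, 0.66 for Arg1 and 0.53 for Cd68. It was 0.35 for Mertk and 0.24 for both Itgae and Cd163. The low r of Irf8 and Arg1 thus rested in large part on the tumours 16IC 3 and 16IC 4. Within genotypes Mertk and Arg1 pointed in opposite directions, with 0.75 and 0.85 over the 5 EIC tumours and -0.93 and -0.84 over the 5 16IC tumours, and with 5 tumours each these values are a description only. In 16IC 3, the tumour with the least Csf1r, Mertk stood at 16.8 CPM and Arg1 at 41.7 CPM, the highest of the 16IC tumours for both genes.

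**Figure D5:**
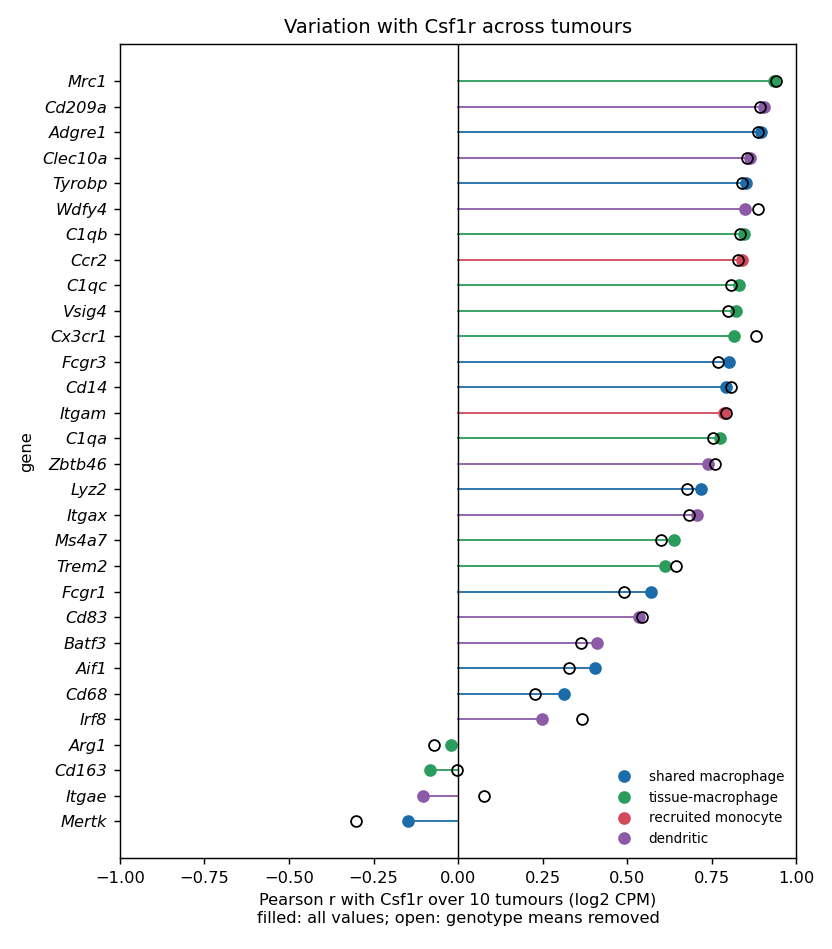
Pearson r of each of 30 genes with Csf1r over the 10 tumours (log2 CPM), filled points coloured by role, with open points after genotype means are removed. Mrc1, Cd209a and Adgre1 are at the top, 4 genes (Arg1, Cd163, Itgae and Mertk) are at or below 0, and the roles are interleaved.

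The growth factors and attractants that these receptors bind were compared in the same way. Csf1, the main ligand of CSF1R, was at 69.4, 35.0, 34.3, 63.1 and 43.1 CPM in EIC 1 to 5 and 63.2, 54.4, 30.7, 23.5 and 57.1 CPM in 16IC 1 to 5. The log2 difference was -0.10 (SE 0.31, adjusted p = 0.904, edgeR). Csf1 was lowest in 16IC 3 and 16IC 4. Across tumours its r with Csf1r was 0.74 (permutation p = 0.00925, rho 0.77, permutation p = 0.0127; adjusted over 4 pairs 0.037 and 0.0253) and 0.64 without 16IC 3 and 16IC 4. Il34, the second ligand, ran the other way (r -0.57, permutation p = 0.0789, rho -0.56, permutation p = 0.0959), which did not pass after adjustment (0.105 and 0.128). Its r was -0.82 without EIC 2 and EIC 4.

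Ccl2, the ligand of CCR2, was at 4.93, 2.38, 1.80, 11.5 and 4.04 CPM in EIC 1 to 5 and 3.67, 4.22, 3.04, 1.65 and 3.75 CPM in 16IC 1 to 5. EIC 4 was highest and 16IC 4 lowest. Its r with Ccr2 was 0.70 (permutation p = 0.0243, rho 0.90, permutation p = 9.2e-04; adjusted 0.0487 and 0.00368) and 0.59 without 16IC 4 and EIC 4. Cx3cl1 and Cx3cr1 had an r of 0.37 (permutation p = 0.293, rho 0.43, permutation p = 0.220). Pairs with Flt3, Ccr7 or Xcr1 were not computed because these receptors did not pass the filter on counts.

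Other genes of the myeloid pathway, taken from lists written for this purpose, were lower in 16IC more often than higher, and edgeR called 0 in every list. Over all genes tested 52.3% were lower (median -0.02). The growth factor list and the further dendritic cell list below lay nearest to that share. Of 15 tested transcription factors of myeloid cells 14 were lower (median log2 difference -0.41). DESeq2 called 1, Nfil3, a factor of dendritic and NK cell development that many other cells also express. It was at 24.7, 13.4, 10.4, 14.1 and 22.5 CPM in EIC 1 to 5 and 4.32, 6.90, 4.50, 5.96 and 4.81 CPM in 16IC 1 to 5. Its groups did not overlap, the 16IC tumours being lower, and the log2 difference was -1.68 (SE 0.28, adjusted p = 0.140, edgeR). Of 10 tested growth factors and their receptors, 6 were lower and 4 higher (median -0.15). Csf3r, the receptor of granulocyte growth factor, had the smallest p of them (10.3 ± 5.67 CPM for EIC, 4.53 ± 2.90 CPM for 16IC, log2 difference -1.18, SE 0.49, adjusted p = 0.358, edgeR), followed by Csf2rb, a receptor chain for GM-CSF (19.6 ± 7.80 CPM for EIC, 13.2 ± 2.97 CPM for 16IC, log2 difference -0.57, SE 0.30, adjusted p = 0.425).

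Of 33 further monocyte and macrophage genes tested, 26 were lower and 7 higher (median -0.56). DESeq2 called 1 of them, Cd36, a fatty acid and scavenger receptor also made by fat and vessel cells, which was higher in 16IC (adjusted p = 0.0130; 0.290 by edgeR). It was at 991 CPM in 16IC 1 and 821 CPM in 16IC 4 and at 11.1 to 51.1 CPM in the other 8 tumours, so the difference came from those libraries. Of 21 phagocyte adaptors and complement partners 15 were lower and 6 higher (median -0.41). Lrp1, an endocytic receptor of macrophages and fibroblasts, had the smallest p (205 ± 103 CPM for EIC, 77.2 ± 40.4 CPM for 16IC, log2 difference -1.41, SE 0.45, adjusted p = 0.290, edgeR), and Itgb5, an integrin beta chain, was next (log2 difference 0.39, SE 0.15, adjusted p = 0.342).

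Of 10 tested attractants and their receptors, 8 were lower and 2 higher (median -0.51). DESeq2 called Xcl1, the ligand of XCR1, which edgeR's filter left out as too scarce, higher in 16IC (adjusted p = 0.0426). Of 15 further dendritic cell genes tested, 8 were lower and 7 higher (median -0.08). DESeq2 called 1, Fscn1, the actin bundler fascin of mature dendritic cells that tumour cells also make (134 ± 74.4 CPM for EIC, 33.9 ± 9.49 CPM for 16IC, log2 difference -1.98, SE 0.44, adjusted p 0.00176 by DESeq2 and 0.249 by edgeR). All 10 pan-leukocyte genes were lower (median -0.51), with Cd53 at -0.94 (SE 0.38) and Lcp2 at -0.79 (SE 0.31).

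Genes of MHC class II, which dendritic cells and macrophages use to present antigen, went the other way from most of these lists. All 9 tested were higher in 16IC (median 0.86), with 0 called by edgeR or DESeq2. H2-DMb2, a peptide loading chain, was at 9.56, 16.2, 12.5, 3.88 and 9.64 CPM in EIC 1 to 5 and 44.2, 15.6, 20.98, 31.4 and 15.8 CPM in 16IC 1 to 5. 16IC 1, 16IC 3 and 16IC 4 were above every EIC tumour, and the log2 difference was 1.31 (SE 0.40, adjusted p = 0.288, edgeR). H2-DMb1, the chain encoded beside it, had 1.04 (SE 0.39, adjusted p = 0.322). The list summed to 225 to 704 CPM in EIC and 278 to 1422 CPM in 16IC. The highest sum was in 16IC 1, a tumour with low levels of the C1q chains.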

How the data were processed

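Bulk RNA was measured in 10 mammary tumours, 5 per genotype, using Qiagen RNeasy Mini columns and NEBNext Ultra II libraries, per the labels' protocols. The submitters' processing notes name GRCm38 (mm10) and the tools limma, edgeR, HTSeq, STAR and Trimmomatic. The annotation, the strand setting and tool versions are not stated there. The deposited table holds the authors' raw counts for 26063 genes, which all tests used. It also holds the authors' normalized counts (a signal scaled by 1 factor per library), their FPKM values, the gene length, and the authors' log2 fold changes with p-values and adjusted p-values.

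The test was that of edgeR 4.0.16 with TMM scaling in R 4.3.3 (quasi-likelihood, robust option, genotype as the only term) over 14915 genes kept by filterByExpr (minimum count 10), which hold 99.8% of the counts. P-values were adjusted by Benjamini-Hochberg over all of them, with a threshold of 0.05, and both the edgeR and the DESeq2 fits were tested on simulated data. DESeq2 1.42.0, voom of limma 3.58.1 with sample quality weights, other scalings, no filter, the robust option off and each tumour left out were alternatives. The median biological coefficient of variation was 33.6%, so the spread between tumours limits precision more than depth. Permutation tests of single genes were exact and two-sided over 252 arrangements (smallest p 0.00794). Those of correlations drew 100000 resamples. Log2 CPM used a prior count of 2.

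Groups follow the genotype labels. Tumour numbers follow sample order and pair nothing, and no batch is named in the labels. Exon overlaps come from GENCODE mouse release 21 and promoters from RefSeq (GRCm38.p6).

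The genes, their roles and the other lists were chosen with earlier results of these data known. Values in every tumour are given for the C1q genes, Mrc1, Vsig4, Ccr2, Itgam, Xcr1, Clec9a, Flt3, Csf1r and Adgre1, for any called member, and for the 3 smallest p-values in each of the shared, tissue macrophage and dendritic groups. From each list the text names genes called by edgeR, otherwise by DESeq2, otherwise those with the 2 smallest p-values. Csf1, Ccl2, Ms4a1, Cd79a, Ncr1, Klrb1c, Cd3e, Cd8a, Spi1, Ptprc, Epcam and Krt8 were added after their values were seen.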

Additional observations from a re-analysis of the deposited data

Results flagged for a closer look

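In 4 of 74 groups of 5 tumours (5.41%), 1 tumour lay far from the other 4 of its genotype by Dixon's test. Chance gives such a tumour in about 5% of groups. Marco was at 4.35 CPM in EIC 1 against 0 to 0.125 CPM in the other EIC tumours, and at 0.0586 CPM in 16IC 5, a single count, against 0 in the other 16IC tumours. Siglech, the lectin of plasmacytoid dendritic cells, was at 2.38 CPM in EIC 1 against 0.120 to 0.422 CPM in the other EIC tumours. Cd83 was at 3.04 CPM in 16IC 3 against 4.98 to 5.77 CPM in the other 16IC tumours.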

How the results depend on the processing

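No member passed edgeR's adjusted threshold under any alternative, and the median log2 difference of the tested members kept its sign in all of them (-0.29 in the main analysis, -0.52 with voom, -0.14 without EIC 1 and -0.48 without 16IC 5). No paired analysis was possible because the tumour numbers follow sample order and the labels pair no animals. DESeq2 called 356 genes of the whole table against 0 by edgeR, and 178 to 839 with 1 tumour left out, an alternative chosen after seeing the data. EdgeR called 0 to 2 genes with 1 tumour left out. DESeq2 called 0 members with all tumours and 0 to 1 with 1 left out, the 1 being Itgam without 16IC 5. Members at an unadjusted p under 0.05 numbered 0 in the main analysis, 1 with DESeq2's size factors or with the robust option off, 2 with DESeq2, 3 with no filter on low counts, 4 with voom and 0 to 4 with 1 tumour left out. Members higher in 16IC numbered 6 in the main analysis, 3 with voom and 2 to 11 with 1 tumour left out. Those lower numbered 25, 28 and 21 to 30, as the filter on low counts was applied anew in each fit. The dendritic median was 0.0452 without 16IC 3 and 0.0728 without EIC 1, and -0.40 to 0.07 over all fits with 1 tumour left out. The log2 difference of Ccr2 was 0.055 without 16IC 3, 0.0648 without 16IC 4 and -0.48 to 0.06 over all such fits. Members with an r of at least 0.8 with Csf1r fell from 12 to 6 without 16IC 3 and 16IC 4, where fewer tumours enter. The causes of the other shifts were not tested. Of the alternatives computed, 447 values were counted as the same, 27 moved and 4 reversed. Those counted as the same include smaller shifts, such as 243 genes called by DESeq2 without 16IC 1 against 356 with all tumours. Depth limits Xcr1, Clec9a, Flt3, Ccr7, Siglech, Marco and Vsig4, with 0 counts in at least 1 tumour for all of these but Siglech. Cd209a also had 0 counts in 16IC 3, and Batf3 and Itgae had as few as 9 counts in a tumour, so depth limits them in part. The spread between tumours limits the rest.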
